A study of Papio anubis and Macaca mulatta with 6 samples.

Results

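Chemokines and their receptors were followed across the cells of the immature testis of 2 baboons (Papio anubis) and 2 rhesus monkeys (Macaca mulatta). Members were taken by name alone, as every listed gene symbol that starts with CCL, CXCL, CCR, CXCR, ACKR or XCL and a digit, together with CX3CL1, CX3CR1 and XCR1. This gave 54 of 34178 gene symbols in the baboon and 59 of 21356 in the rhesus monkey, or 61 of 40456 symbols over both species, of which 52 were listed in both. The baboon members were 33 ligands, 17 signalling receptors and 4 atypical receptors, and the rhesus members were 37, 18 and 4. CXCL12 is not among the baboon symbols and was not analysed here for that species.

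Chemokines are small secreted proteins, with the membrane-anchored CX3CL1 and CXCL16 as exceptions, that bind receptors on the cell surface and direct the movement of leukocytes and of some stem and germ cells. Signalling receptors couple to inhibitory G proteins, whereas the atypical receptors of the ACKR family bind chemokines without this coupling and carry or remove them. In the testis, chemokine signals are known chiefly from resident macrophages, from vessels and from the CXCL12 and CXCR4 pair, which guides germ cells of the embryo to the gonad.

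The study used testes collected at necropsy from animals that were euthanized for a purpose other than this work. The paper names no treatment and does not give that purpose. Cells were released by digestion in 2 steps with a wash that removes part of the interstitial cells. Unselected cells were sequenced with the 10x Genomics 3′ method, which counts unique molecular identifiers (UMIs), so that each UMI stands for 1 captured RNA molecule. Baboon 1 had the libraries 1A and 1B, baboon 2 and rhesus 1 had 1 library each, and rhesus 2 had the libraries 2A and 2B, which gives n = 2 animals per species. The library of baboon 2 was made with chemistry version 3 and all others with version 2, so that animal and chemistry cannot be told apart where baboon 1 and baboon 2 differ. Ages of 15, 20 and 26 months and a newborn are named for the 4 animals, but the sources attach them to opposite species, and age was not used.

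Cells were placed in 6 classes by the number of marker genes with a UMI, with at least 3 markers of a class required and none of the members among the markers. In the baboon, 4820 stromal, 253 endothelial, 24 macrophage, 51 lymphocyte, 15374 Sertoli and 165 germ cells were found, and in the rhesus monkey 14088, 556, 137, 47, 7462 and 100. Only 7 of the baboon macrophages came from baboon 1, only 39 of the rhesus endothelial cells from rhesus 1, and all 47 rhesus lymphocytes from rhesus 1. Levels are given as UMIs of a gene per 1000000 UMIs of the class (CPM), beside the same level in free RNA, measured in droplets without cells. Fewer cells of a kind within a class and less RNA per cell cannot be told apart in such a level.

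The 6 libraries held 16875294 to 49803025 UMIs, of which 57.6% to 87.4% were in the 5581 to 11141 cells kept per library. Cells had a median of 1445 to 2740 UMIs. AMH, the Sertoli cell hormone and a marker of this class, reached 3.20% to 11.7% of its free RNA level in endothelial cells. For the other classes this is a low estimate of the background, since each of them but rhesus germ cells (111 CPM) had more AMH. Baboon stromal cells had 724 CPM and rhesus lymphocytes 522, against 281 and 152 in endothelial cells and 5803 and 1983 in free RNA. AMH also helped to sort the cells, which can lower these levels. The libraries 2A and 2B shared 109 barcodes, where 79.3 were expected by chance, and 1A and 1B shared 67, where 72.5 were expected. Where a class had no UMI of a gene, 3 UMIs were taken as the limit, which is 56.8 CPM in baboon macrophages, 25.6 in baboon lymphocytes, 9.17 in rhesus macrophages and 30.1 in rhesus lymphocytes. These limits and all intervals cover counting error only.

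Members were sparse, with 6941 UMIs in the baboon cells and 7954 in the rhesus cells. In the baboon, 10 members had no UMI in any cell, 20 had 1 to 9, 13 had 10 to 99 and 11 had at least 100. The same counts for the rhesus members were 11, 20, 10 and 18. All 11 baboon members with at least 100 UMIs were highest in the same class in both animals, and so were 11 of the 18 rhesus members, with lymphocytes from rhesus 1 alone. UMIs were summed per animal and class, and each class was compared with the mean of the other 5 by the quasi-likelihood test of edgeR. A difference was called at an adjusted p under 0.05 (Benjamini-Hochberg, over every gene in the comparison). Differences are on the log2 scale and come with a standard error (SE) worked back from the F statistic of the test. Each is taken against the mean of the log levels of the other classes. Classes without a UMI lower that mean, so a difference can be far larger than the ratio to the next class. Where the class itself had no UMI of a member, its negative difference is not a measured fall, and medians over the members include such values. The filter of this test goes chiefly by the level in single sums and not by the UMI total, and 10 baboon and 21 rhesus members passed it. Baboon CX3CR1 passed with 20 UMIs, whereas baboon ACKR4 with 511 and rhesus CCR10 with 361 did not. A member that passed this filter through 1 high class had to differ, so the counts below describe the members and are read against the share of all genes called. No member that was highest in stromal or germ cells over both animals together passed it. The lack of higher calls in those classes therefore follows in part from the filter.

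**Figure D1:**
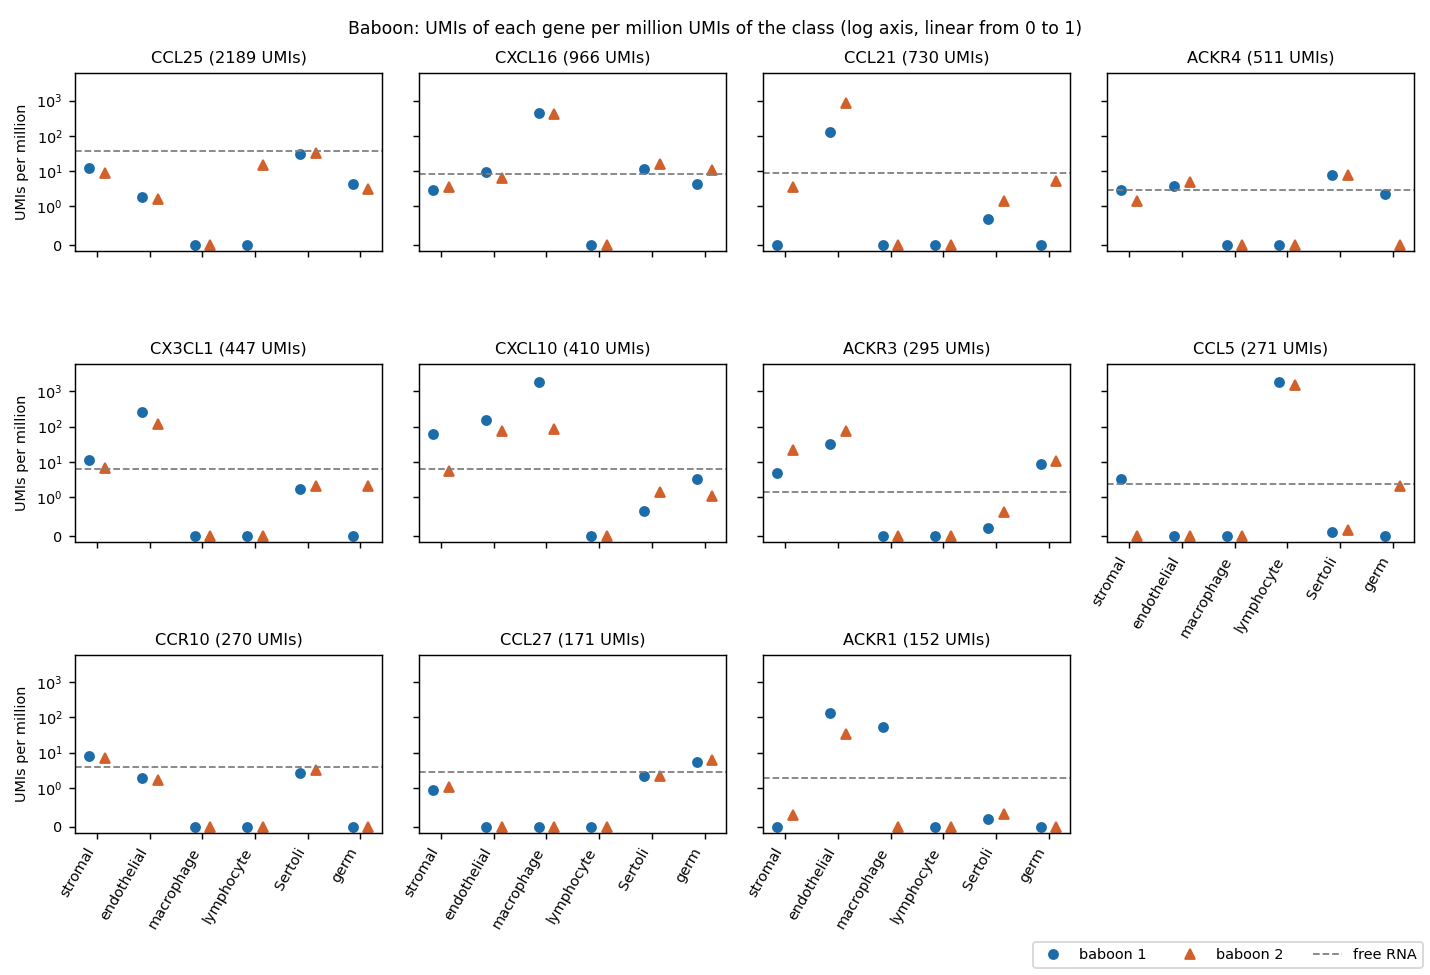
Levels of the 11 baboon members with at least 100 UMIs in the 6 classes (UMIs per 1000000 UMIs of the class, log axis that is linear from 0 to 1), with 1 point per animal and a dashed line at the free RNA level. CCL21 and CX3CL1 were highest in endothelial cells, CXCL16 and CXCL10 in macrophages, CCL5 in lymphocytes and CCL25 in Sertoli cells, and the Sertoli level of CCL25 lay below its free RNA line of 37.9 CPM.

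In baboon endothelial cells, 5 of the 10 members tested were called higher and none lower (edgeR; also none at an unadjusted p under 0.05 and none by DESeq2), where 13.1% of all genes were called higher and 1.26% lower in this class. Baboon macrophages had 4 members called higher, where 2.77% of all genes were, so that these 2 classes are not ranked. The median log2 difference in endothelial cells was 2.81 over the members and 0.65 over all genes. The 5 endothelial members were 3 ligands (CCL21, CX3CL1 and CXCL10) and the atypical receptors ACKR1 and ACKR3. In rhesus endothelial cells, 5 of 21 members were called higher (ACKR1, CCL21, CX3CL1, CXCL12 and CXCL3) and CCL3 and CCL4L1 were called lower, where 11.3% of all genes were called higher and 1.67% lower. The median over those 21 members was -3.20, against 0.30 over all genes. It ranks members without an endothelial UMI, such as CCR1 (-5.09, SE 8918), among the lowest.

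ACKR1, the Duffy antigen receptor, which marks venules and carries chemokines across their wall, was called higher in endothelial cells of both species. It lies at chr1:129857014-129860138 of Panubis1.0 and chr1:91758653-91761697 of Mmul_10. It was read at 134 CPM in baboon 1 and 33.9 in baboon 2, and at 143 in rhesus 1 and 98.0 in rhesus 2. Outside the endothelium, baboon macrophages had 1 UMI and every other class stayed at or under 3.01 CPM in each animal. The log2 difference was 8.65 ± 0.83 (SE) in the baboon (adjusted p = 1.33e-05) and 9.60 ± 0.64 in the rhesus monkey (adjusted p = 6.54e-06). ACKR1 was not spread evenly, since 24 of 253 baboon and 51 of 556 rhesus endothelial cells had a UMI and the 5 highest cells held 53.2% and 50.0% of all UMIs.

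CX3CL1, the tethered fractalkine that slows passing leukocytes, lies at chr18:32416640-32429062 of Panubis1.0 and chr20:44611122-44621884 of Mmul_10. Its endothelial level was 260 CPM in baboon 1, 121 in baboon 2, 133 in rhesus 1 and 21.7 in rhesus 2. Stromal cells followed with 11.4 and 6.84 CPM in the baboons and 10.6 and 5.15 in the rhesus monkeys, Sertoli and germ cells had at most 2.09, and macrophages and lymphocytes had no UMI. The endothelial difference was 8.92 ± 0.68 in the baboon (adjusted p = 1.93e-06) and 8.56 ± 1.27 in the rhesus monkey (adjusted p = 0.00197). At 1000 UMIs per cell, 10.7% of baboon endothelial cells had a CX3CL1 UMI (exact 95% interval 7.03% to 15.4%), against 0.786% of stromal and 0.21% of Sertoli cells. The rhesus shares were 2.40% (1.24% to 4.15%), 0.719% and 0.0466%. A single cell of baboon 1 held 46 of the 216 baboon endothelial UMIs.

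CCL21, which guides CCR7-bearing cells into lymphatic vessels, had the most endothelial UMIs of any member in the baboon, and they lay in few cells. It lies at chr13:62759486-62760634 of Panubis1.0 and was read at 129 CPM in baboon 1 and 839 in baboon 2, with at most 5.20 CPM in any other class (log2 difference 10.51 ± 0.96, adjusted p = 8.28e-06). Only 12 of 253 endothelial cells had a UMI, 1 cell held 187 of the 589 UMIs, and the 5 highest cells held 96.9%. Of the 6 cells with at least 3 CCL21 UMIs, 3 had PROX1, 5 had LYVE1 and 4 had FLT4, 3 genes of lymphatic endothelium chosen here after CCL21 had been seen. Among the other 247 endothelial cells, these genes were found in 7.29%, 21.5% and 15.8%. None of the 6 cells had an ACKR1 or a CX3CL1 UMI, which were found in 9.72% and 35.2% of the others. In the rhesus monkey, 16 of the 41 CCL21 UMIs were endothelial and 18 lay in mixed or unassigned cells. The endothelial UMIs came from 2 cells of rhesus 1, of which both had FLT4 and neither had PROX1 or LYVE1. Among the other 554 endothelial cells, FLT4 was found in 29.1%, PROX1 in 0.722% and LYVE1 in 21.1%. CCL21 was at 0 in 517 endothelial cells of rhesus 2, and its call (adjusted p = 0.0477) was not kept by DESeq2 (adjusted p = 0.276).

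CXCL12, the ligand of CXCR4 and ACKR3, was available for the rhesus monkey alone, at chr9:45100832-45117692 of Mmul_10. Endothelial cells had 199 CPM in rhesus 1 and 51.6 in rhesus 2, and stromal cells had 27.0 and 8.17. Macrophages had 6.19 and 6.03 CPM from 1 UMI in each animal, Sertoli cells 0.644 and 0.141, and germ cells and lymphocytes none. The endothelial difference was called (7.58 ± 1.01, adjusted p = 0.000659), whereas the stromal difference of 4.47 ± 1.39 missed the threshold (adjusted p = 0.0589). The 2 sources differed in how the UMIs were spread, since 338 stromal UMIs lay in 317 cells with at most 4 in a cell, and 139 endothelial UMIs lay in 54 cells with up to 14 in a cell. Of the 51 endothelial cells with ACKR1, 1 also had CXCL12, which was found in 10.5% of the cells without ACKR1 (pairs of genes were chosen here after values had been seen).

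CXCL3, a neutrophil-attracting ligand of CXCR2 and 1 of several near-identical genes whose reads could be split between copies, was read at 61.4 and 100.1 CPM in the endothelial cells of rhesus 1 and rhesus 2 and at 37.1 and 163 in their macrophages. Both classes were called higher (adjusted p = 0.000834 and 0.000773), and neither was above the other in both animals. Without the sum of rhesus 2 in that class, the adjusted p was 0.0833 for endothelial cells and 0.166 for macrophages. Endothelial UMIs were spread over 102 of 556 cells, with 24 of the 51 ACKR1 cells among them, but macrophage UMIs came from 6 of 137 cells, of which the 5 highest held 97.0%. Stromal cells had 8.31 and 3.09 CPM, and Sertoli, germ and lymphocyte samples had at most 3.88.

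CXCL10, the interferon-induced ligand of CXCR3, overlaps ART3 on the genome (chr3:119783704-119786144 of Panubis1.0), and whether strand was used in counting is not given in the sources used here. It was found in 410 UMIs of baboon cells and 1 UMI of rhesus cells. Baboon macrophages had 1864 CPM in baboon 1 and 86.7 in baboon 2, endothelial cells 155 and 75.9, stromal cells 61.4 and 5.59 and germ cells 3.28 and 1.04, while lymphocytes had none. In baboon 1 these levels rested on single cells, since 1 stromal cell held 126 of 129 UMIs, 1 endothelial cell 83 of 84 and 1 macrophage 30 of 34. In baboon 2, the 47 endothelial UMIs lay in 9 of 119 cells, of which 1 held 44.7% and 5 had at least 3. The 15374 Sertoli cells of both animals had 62 UMIs, of which 1 cell held 32. The endothelial call (log2 difference 4.88 ± 1.21, adjusted p = 0.0148) was lost without the endothelial sum of baboon 1 (adjusted p = 0.117), and the macrophage call (7.48 ± 1.29, adjusted p = 0.00426) without the macrophage sum of baboon 1 (adjusted p = 0.740). CXCL9 and CXCL11, which share the receptor, had 22 and 44 endothelial UMIs. The endothelial CXCL11 came from 1 cell, which also had CXCL10, and CXCL9 from 2 cells, of which 1 had CXCL10.

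**Figure D2:**
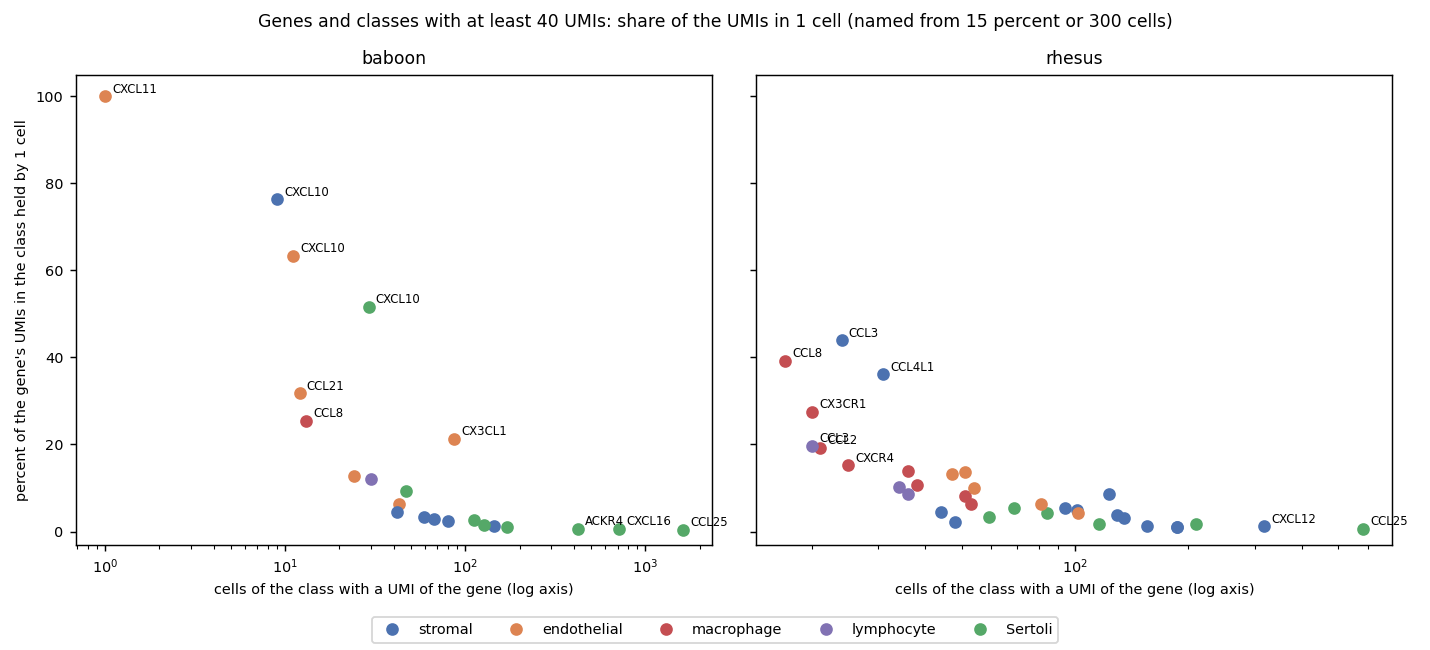
For each member and class with at least 40 UMIs, the share of the UMIs held by a single cell (percent) against the number of cells of the class with a UMI (log axis), coloured by class. Baboon CXCL11 and CXCL10 stand at the top, with 100% and 51.6% to 76.4% of their UMIs in 1 cell, and CCL25 in Sertoli cells stands at the lower right, with 0.419% in the baboon.

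Macrophages had the most members called higher in the rhesus monkey. Of 21 members tested, 12 were called higher and none lower (edgeR; 1 lower at an unadjusted p under 0.05 and none by DESeq2), where 7.60% of all genes were called higher and 0.882% lower, and the median log2 difference was 6.0 over the members and -0.02 over all genes. They were the ligands CCL2, CCL3, CCL4L1, CCL8, CCL13, CCL24, CXCL3 and CXCL16 and the receptors CCR1, CCR2, CX3CR1 and CXCR4. In the baboon, with 24 cells, CCL8, CXCL10, CXCL16 and CX3CR1 were called higher of 10 members tested and none lower (edgeR; also none at an unadjusted p under 0.05 and none by DESeq2), where 2.77% of all genes were called higher and 2.00% lower. The baboon medians were -0.41 over the members and -1.46 over all genes.

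CCL3 and CCL4L1, the inflammatory macrophage proteins that act on CCR1, had the highest levels of any member in rhesus macrophages. CCL3 was read at 2488 CPM in rhesus 1 and 1816 in rhesus 2 (log2 difference 8.85 ± 0.58, adjusted p = 2.26e-06), and CCL4L1 at 3120 and 893 (8.25 ± 0.66, adjusted p = 1.04e-05). Lymphocytes of rhesus 1 came second, at 863 CPM for CCL3 and 984 for CCL4L1, and both genes were also called higher in that class (adjusted p = 3.95e-05 and 0.000149). Stromal, endothelial and Sertoli cells lay between 0 and 5.11 CPM for either gene, below the free RNA levels of 8.69 and 6.82, and germ cells between 3.01 and 11.6. Both are multicopy genes, with CCL3 at chr16:32445799-32447174 and CCL4L1 at chr16:26406769-26408762 of Mmul_10, and reads could be split among copies. Of the 36 macrophages with CCL4L1, 32 also had CCL3, and 4.65% of macrophages without CCL3 had CCL4L1. In all, 51 of 137 macrophages had CCL3, with up to 58 UMIs in a cell. In the baboon, a copy listed as CCL3L3 had 8 UMIs, 5 of them in lymphocytes and 2 in macrophages.

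The CC ligands CCL2, CCL8, CCL13 and CCL24, which attract monocytes or eosinophils, were also highest in rhesus macrophages, and they differed between the animals. CCL8 was read at 767 CPM in baboon 1 and 1069 in baboon 2 (log2 difference 12.66 ± 0.65, adjusted p = 2.64e-07), and no other baboon class was above 1.04. Rhesus CCL8 had 489 CPM in the macrophages of rhesus 1, which also had 1.68 in Sertoli and 0.475 in stromal cells and none in the other classes. No class of rhesus 2 had a UMI, with 63 macrophages among them, so that its call (11.59 ± 1.73, adjusted p = 0.00211) rests on 1 animal. CCL2, the ligand of CCR2, had 464 CPM in rhesus 1 and 18.1 in rhesus 2 (9.06 ± 1.38, adjusted p = 0.00168), followed by stromal cells with 22.4 and 4.19. Endothelial and Sertoli cells had at most 2.58, germ cells and lymphocytes had none, and the call was lost without the macrophage sum of rhesus 1 (adjusted p = 0.436). CCL24, an eotaxin that binds CCR3, had 365 and 36.2 CPM (adjusted p = 0.000465), and without that sum its adjusted p was 0.104. Stromal and Sertoli cells had at most 0.831 CPM of CCL24 and the other classes none. CCL13 had 16 macrophage UMIs in rhesus 1 and none in rhesus 2 (adjusted p = 0.00817, and 0.231 in DESeq2). Each of these 4 ligands was lower in rhesus 2 than in rhesus 1, and 12 of the 17 macrophages with CCL8 also had CCL24.

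CXCL16, a membrane-anchored ligand of CXCR6 that also takes up oxidised lipids, was highest in macrophages in both species. They had 439 CPM in baboon 1, 404 in baboon 2, 210 in rhesus 1 and 368 in rhesus 2. The difference was 6.82 ± 0.63 in the baboon (adjusted p = 2.21e-05) and 8.18 ± 1.21 in the rhesus monkey (adjusted p = 0.000977), and at 1000 UMIs per cell 31.2% (11% to 58.7%) and 23.9% (15.4% to 34.1%) of macrophages had a UMI. In the baboon, the call was lost when only barcodes above the UMI cutoff were kept (adjusted p = 0.0936). Sertoli cells had lower levels but many cells, with 804 of the 966 baboon UMIs at 11.1 and 15.5 CPM and 94 of the 291 rhesus UMIs at 9.41 and 2.97. The free RNA levels were 8.06 and 6.13. Endothelial cells had 9.21, 6.46, 30.7 and 0.516 CPM in baboon 1, baboon 2, rhesus 1 and rhesus 2, stromal cells 0.221 to 5.34 and germ cells 0 to 10.4, and lymphocytes had none. The gene overlaps ZMYND15 in both annotations and MED11 in the rhesus one (chr16:4558297-4565692 of Mmul_10).

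Of the signalling receptors, CX3CR1, CCR1 and CCR2 had their highest level in macrophages in the rhesus monkey. CX3CR1, the receptor of CX3CL1, had 219 and 57.8 CPM in the macrophages of baboon 1 and baboon 2 and 190 and 14.3 in their lymphocytes. In rhesus 1 it had 229 CPM in macrophages and 100 in lymphocytes, and in rhesus 2 18.1 in macrophages. Stromal, endothelial and Sertoli cells had at most 0.356 CPM. It was called higher in both classes of both species. In macrophages the call was lost without baboon 1 (adjusted p = 0.268), without baboon 2 (adjusted p = 0.103) and without rhesus 1 (adjusted p = 0.237), and in rhesus lymphocytes by DESeq2 (adjusted p = 0.305). CCR1, which binds CCL3 and CCL5, had 55.7 and 84.5 CPM in rhesus macrophages (adjusted p = 0.000477) and CCR2, the receptor of CCL2, had 55.7 and 78.4 (adjusted p = 0.000877), and neither receptor was lower in rhesus 2 than in rhesus 1. Of the 49 rhesus CCR1 UMIs, 23 were in macrophages, 13 in stromal and 9 in Sertoli cells, which were larger classes with at most 0.902 CPM, and lymphocytes had none. In the baboon, 5 of 12 CCR1 UMIs were in macrophages and the other 7 in Sertoli cells.

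The bases just upstream are shown for genes called higher in rhesus macrophages, because these members rose in the same class: for CCL3, the macrophage member with the most UMIs, and for CXCL3 and CCL24, which held a κB and an AP-1 match (Mmul_10, RefSeq gene starts). Each runs over the 250 bases before the annotated start, on the strand of the gene, from 5′ to 3′. Capitals mark matches on either strand to a κB motif (GGG, then NN, then TTTCC), to TGANTCA (AP-1) or to TATAAA (the TATA box). Each of the windows held 1 match, so that no matches overlap. CCL3 is at chr16:32447175-32447424 (minus strand), CXCL3 at chr5:59747913-59748162 (plus) and CCL24 at chr3:45305781-45306030 (plus).
CCL3: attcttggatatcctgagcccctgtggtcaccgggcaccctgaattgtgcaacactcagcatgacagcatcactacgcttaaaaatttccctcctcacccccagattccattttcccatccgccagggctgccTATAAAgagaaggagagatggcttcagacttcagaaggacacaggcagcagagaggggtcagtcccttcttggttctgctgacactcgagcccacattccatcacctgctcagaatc
CXCL3: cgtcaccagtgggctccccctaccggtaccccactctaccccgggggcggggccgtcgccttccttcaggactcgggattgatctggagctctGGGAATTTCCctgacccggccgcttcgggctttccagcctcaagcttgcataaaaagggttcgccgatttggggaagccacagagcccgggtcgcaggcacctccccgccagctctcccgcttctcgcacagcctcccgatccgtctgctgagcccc
CCL24: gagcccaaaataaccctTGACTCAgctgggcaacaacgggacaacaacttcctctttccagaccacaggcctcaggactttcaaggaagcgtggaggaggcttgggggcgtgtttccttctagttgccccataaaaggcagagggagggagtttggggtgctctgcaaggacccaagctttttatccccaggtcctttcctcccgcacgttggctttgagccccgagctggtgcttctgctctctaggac
A κB match was found in 2 of the 12 macrophage members, an AP-1 match in 1 and a TATA match in 3. Over all 20769 protein-coding genes of the RefSeq table, windows of the same length held these motifs in 1.30%, 5.15% and 9.85%. Of the 58 rhesus members with such a window, 4 (6.90%), 6 (10.3%) and 11 (19.0%) did. A match is a description of these letters and not of a bound site.

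**Figure D3:**
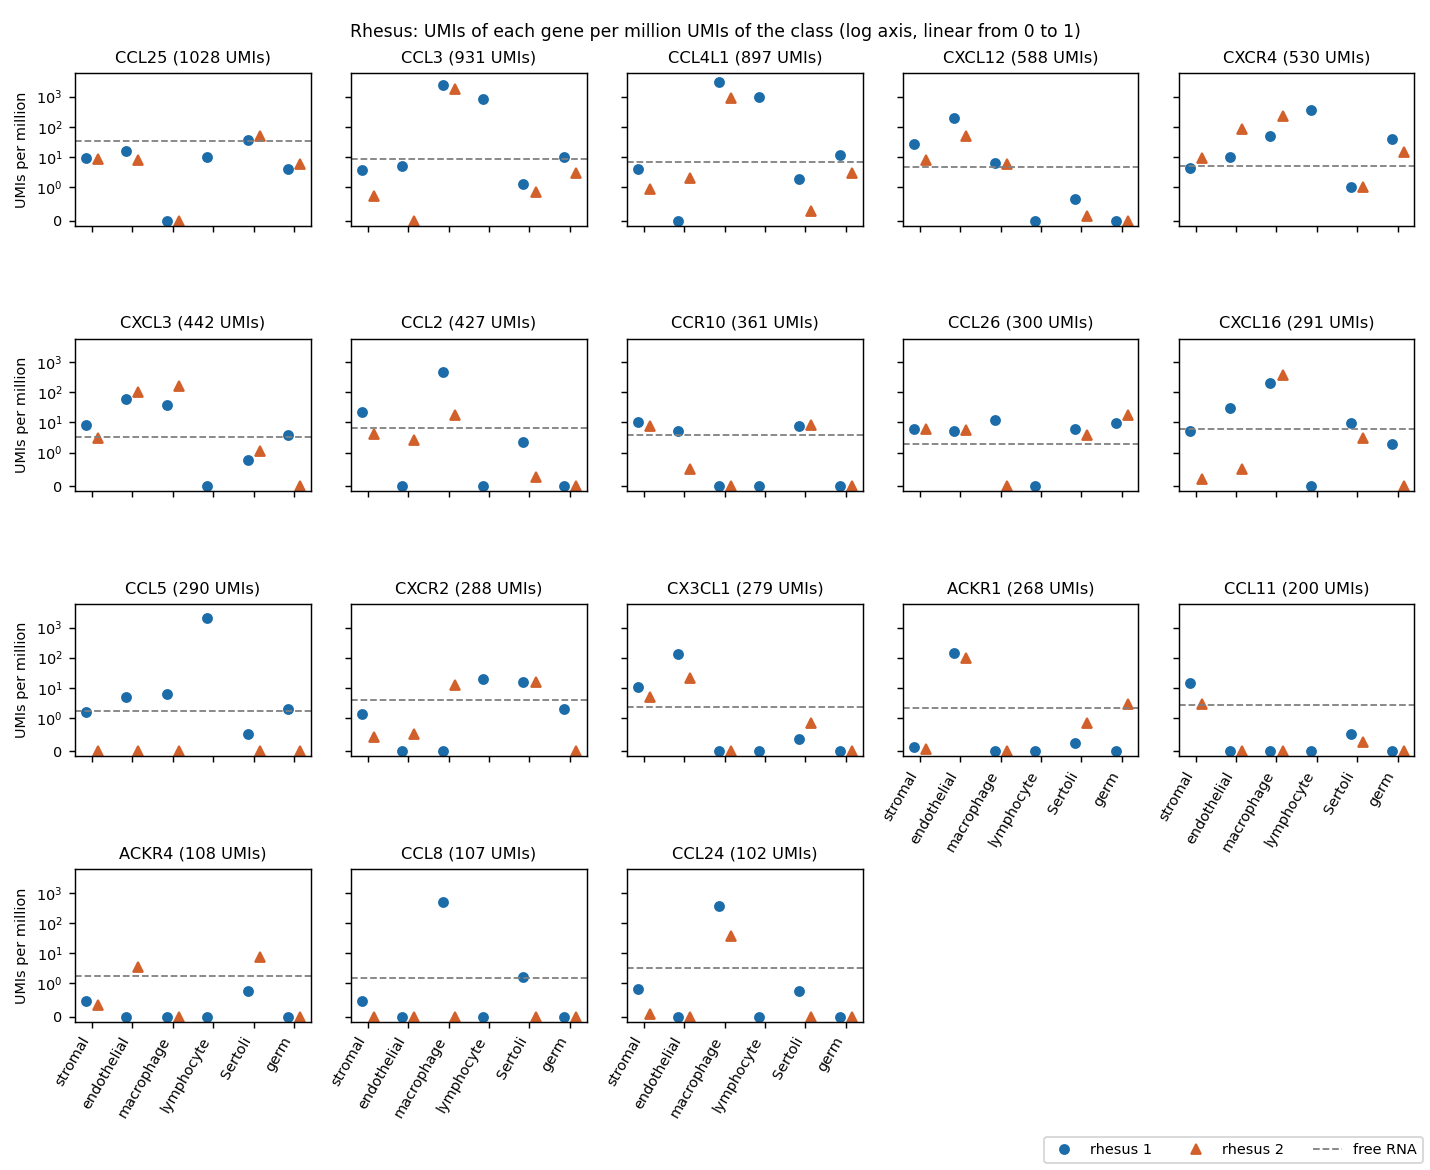
Levels of the 18 rhesus members with at least 100 UMIs in the 6 classes (UMIs per 1000000 UMIs of the class, log axis that is linear from 0 to 1), with 1 point per animal, none for lymphocytes of rhesus 2, and a dashed line at the free RNA level. CCL3, CCL4L1, CCL2, CXCL16, CCL8 and CCL24 stood highest in macrophages, with no CCL8 in rhesus 2, and CCR10 stood at similar levels in stromal and Sertoli cells.

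Lymphocytes were marked by CCL5, a ligand of CCR1 and CCR3 that is stored by cytotoxic lymphocytes. It was read at 1880 CPM in baboon 1, 1561 in baboon 2 and 2088 in rhesus 1, and at most 6.19 in any other class. The log2 difference was 13.18 ± 0.68 in the baboon (adjusted p = 1.30e-07) and 11.32 ± 0.76 in the rhesus monkey (adjusted p = 7.80e-06, and 0.0905 in DESeq2). At 1000 UMIs per cell, 50.0% of baboon lymphocytes (34.9% to 65.1%) and 68.1% of rhesus lymphocytes (52.9% to 80.9%) had a CCL5 UMI, against 0.021% and 0.0155% of Sertoli cells. The gene overlaps TAF15 on the other strand of the rhesus genome (chr16:32220376-32229833), and a locus without a symbol, LOC116271042, overlaps it in the baboon.

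In the baboon, 2 of 10 members (CCL5 and CX3CR1) were called higher in lymphocytes and none lower (edgeR; 1 at an unadjusted p under 0.05, none by DESeq2), where 3.09% of all genes were called higher and 1.18% lower. The medians were -6.28 over the members and -0.60 over all genes. The members in the middle, ACKR3 (-6.83, SE 15407) and ACKR1 (-5.73, SE 11325), had no UMI in these cells, so that the first median is not a measured fall. In rhesus lymphocytes, 7 of 21 members were called higher (CCL3, CCL4L1, CCL5, CCR7, CX3CR1, CXCR4 and XCL1) and none lower (edgeR; also none at an unadjusted p under 0.05 and none by DESeq2), where 2.17% and 0.156% of all genes were, with medians of -3.08 and -0.54. The member in the middle, CCL21 (-3.08, SE 7599), had no UMI in these cells either. Rhesus lymphocytes had 1 sum, which the test assumes to vary like the other classes. XCL1, made by activated natural killer and T cells, had 321 CPM (12.69 ± 1.21, adjusted p = 0.00141), and 14 of the 15 cells with XCL1 had CCL5, against 36 of all 47 lymphocytes. CCR7, the receptor of CCL21 carried by naive T cells, had 6 of its 27 rhesus UMIs in 2 lymphocytes (60.2 CPM) and 18 in 17 of the 14088 stromal cells (at most 1.07 CPM). Of these 2 lymphocytes, neither had CCL5. The call (adjusted p = 0.0338) was lost when marked doublets were left out and a stricter class rule was used with it (adjusted p = 0.0759). Only 1 of the 47 lymphocytes was marked as a doublet.

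Other lymphocyte receptors had few UMIs. CXCR3, which binds CXCL9, CXCL10 and CXCL11, had 13 of its 18 baboon UMIs in lymphocytes, at 106 CPM in baboon 1 and 115 in baboon 2, and 1 UMI in all rhesus cells. CXCR6, the receptor of CXCL16, had 4 lymphocyte UMIs in the baboon and none in any rhesus cell. CXCR4 had 371 CPM in the lymphocytes of rhesus 1 and 3 UMIs in all baboon cells. None of these lay in the 51 baboon lymphocytes, which allows up to 25.6 CPM by counting error alone. The gene overlaps LOC110740851 in the baboon annotation and LOC114671318 on the same strand in the rhesus one. Reads lost to an overlapping gene are not covered by that limit, and such a loss was not tested. The annotations differ between the species, and levels were compared within each species only.

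CXCR4, the receptor of CXCL12, was read in all 6 rhesus classes. After lymphocytes came macrophages with 49.5 CPM in rhesus 1 and 229 in rhesus 2, endothelial cells with 10.2 and 87.2, germ cells with 38.8 and 15.0, stromal cells with 4.28 and 9.27 and Sertoli cells with 1.03 and 0.990. It was called higher in lymphocytes (4.46 ± 0.72, adjusted p = 0.00531) and macrophages (3.1 ± 0.62, adjusted p = 0.00749) and lower in Sertoli cells (-5.83 ± 0.86, adjusted p = 0.00109) and stromal cells (-2.44 ± 0.67, adjusted p = 0.0333). Endothelial and germ cells were not called, with an adjusted p of 0.195 for endothelial cells. The macrophage call was lost without rhesus 2 (adjusted p = 0.683), and the stromal call without rhesus 1 (adjusted p = 0.134) or rhesus 2 (adjusted p = 0.0541). In the endothelium, 6 of the 81 cells with CXCR4 also had CXCL12.

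**Figure D4:**
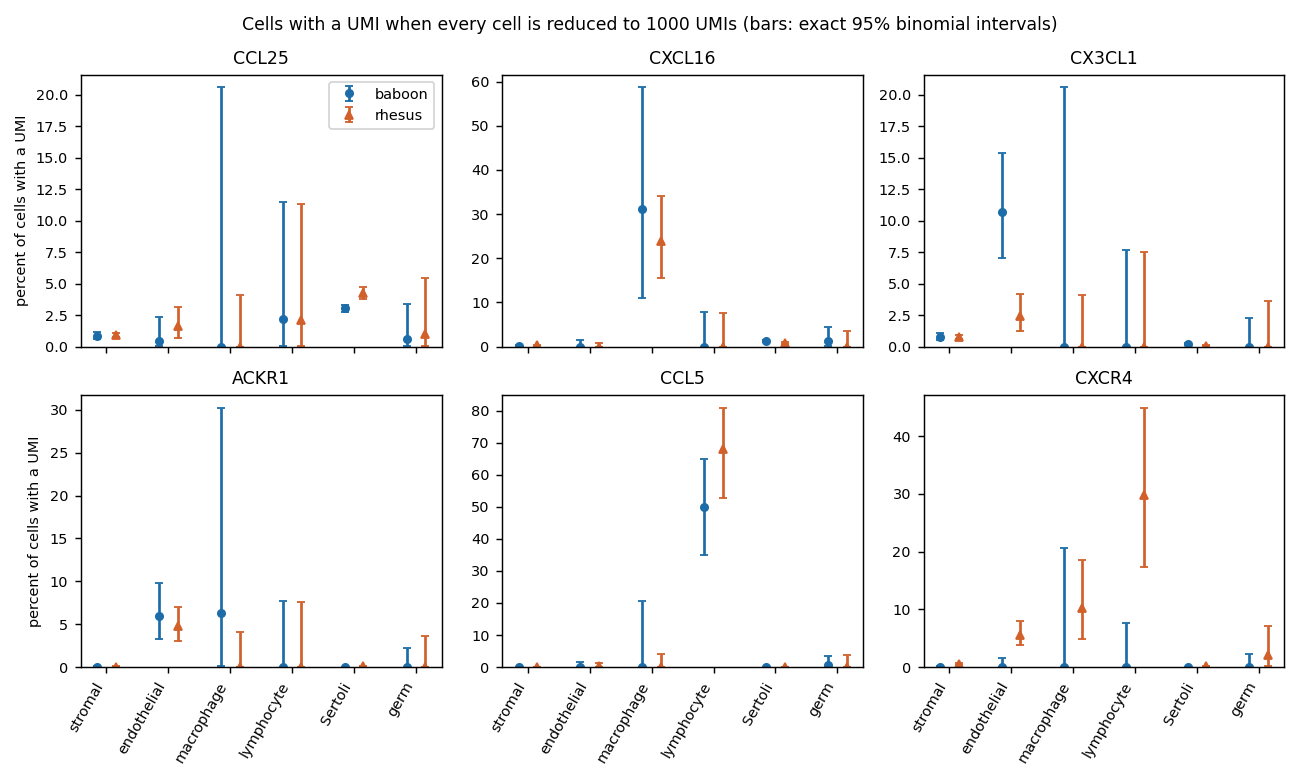
Percent of cells with at least 1 UMI of 6 members in each class after every cell was reduced to 1000 UMIs, with exact 95% binomial intervals, for the baboon (circles) and the rhesus monkey (triangles). CCL25 reached 3.03% and 4.24% of Sertoli cells, CCL5 50.0% and 68.1% of lymphocytes, and the intervals of macrophages are wide because 16 baboon and 88 rhesus macrophages had 1000 UMIs.

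Sertoli cells were marked by CCL25, the ligand of CCR9 known from the thymus and gut, which had the most UMIs of all members in both species. It lies at chr20:43594323-43606251 of Panubis1.0 and chr19:7928413-7976670 of Mmul_10. Sertoli cells had 31.1 CPM in baboon 1, 32.5 in baboon 2, 37.4 in rhesus 1 and 49.5 in rhesus 2. Stromal cells had 12.4, 8.70, 9.03 and 8.31, endothelial cells 1.84, 1.62, 15.3 and 8.25, and germ cells 4.37, 3.12, 3.88 and 6.01. Lymphocytes had 1 UMI in each species and macrophages none, where the limit for baboon macrophages is above the Sertoli level. The Sertoli difference was 4.25 ± 0.66 in the baboon (adjusted p = 0.000506) and 3.99 ± 0.55 in the rhesus monkey (adjusted p = 0.000967).

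Free RNA held CCL25 at 37.9 CPM in baboons and 33.2 in rhesus monkeys, beside 31.8 and 43.2 in the Sertoli cells of both animals together. For each 1000 AMH UMIs, there were 4.25 CCL25 UMIs in baboon Sertoli cells, 6.54 in free RNA and 13.3 in stromal cells, and 6.28, 16.8 and 26.4 in the rhesus monkey. At 1000 UMIs per cell, 3.03% of baboon Sertoli cells (2.75% to 3.32%) had a UMI, against 0.810% of stromal, 0.427% of endothelial and 0.617% of germ cells, and in the rhesus monkey 4.24% (3.76% to 4.76%) against 0.910%, 1.60% and 1.00%. With all UMIs kept, the Sertoli shares were 10.6% and 7.81%. The UMIs were spread thinly, since 1910 baboon UMIs lay in 1626 Sertoli cells with at most 8 in a cell. CCR9, the receptor, had no UMI in any cell of either species.

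In baboon Sertoli cells, CCL25 was the 1 of 10 members called higher and none was lower (edgeR; also none at an unadjusted p under 0.05, but 7 by DESeq2), where 17.2% of all genes were called higher and 3.62% lower, with medians of -1.41 over the members and 0.73 over all genes. In rhesus Sertoli cells, CCL25 and CXCR2 were called higher and CCL3, CCL4L1 and CXCR4 lower, of 21 members (by DESeq2, 2 higher and 8 lower), where 10.8% and 2.97% of all genes were, with medians of -0.23 and 0.39. CXCR2, the neutrophil receptor of CXCL3 and related ligands, had 15.1 CPM in rhesus 1 and 15.4 in rhesus 2 (2.67 ± 0.72, adjusted p = 0.0296). Stromal, endothelial and germ cells had at most 1.94, macrophages had 2 UMIs in rhesus 2, and the lymphocytes of rhesus 1 had 20.1 from 2 UMIs. The call was lost without library 2B (adjusted p = 0.0536) and with classes from clusters (adjusted p = 0.0544). The 226 Sertoli UMIs lay in 209 cells, and free RNA had 4.09 CPM. In the baboon, CXCR2 had 2 UMIs in all.

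Stromal cells, the largest interstitial class, had no member called higher in either species (edgeR; 2 in each at an unadjusted p under 0.05, and by DESeq2 0 baboon and 1 rhesus members), where 17.2% of all baboon genes and 10.9% of all rhesus genes were. Members that were highest in stromal cells, such as CCL11 and CCR10, did not pass the filter, so this count leaves them out. In the baboon no member was called lower either (0 at an unadjusted p under 0.05 and 2 by DESeq2, and 2.01% of all genes by edgeR), and in the rhesus monkey CCL4L1 and CXCR4 were (4 members at an unadjusted p under 0.05 and 6 by DESeq2, and 2.53% of all genes by edgeR). The medians were 1.17 over the baboon members and 0.94 over all genes, and -0.77 and 0.39 in the rhesus monkey. CCL11, the eotaxin of fibroblasts, was found chiefly here, with 158 of its 200 rhesus UMIs in stromal cells at 14.0 CPM in rhesus 1 and 2.94 in rhesus 2, at most 0.515 in Sertoli cells and none in the other classes. Its level was too low in every sum for the filter of the test. Of the 101 stromal cells with CCL11, 24 also had CCL2, against 0.873% of all stromal cells. CCL2 itself was found in 123 stromal cells with up to 21 UMIs in a cell.

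CCR10 and its ligands CCL27 and CCL28, known from skin and mucosa, were found at low levels. CCR10 had 8.10 and 6.84 CPM in the stromal cells of baboon 1 and baboon 2 and 2.71 and 3.24 in their Sertoli cells, with 2 endothelial UMIs. In rhesus 1 and rhesus 2 it had 10.1 and 7.72 in stromal cells and 7.86 and 8.06 in Sertoli cells, and 5.11 and 0.516 in endothelial cells. Macrophages, lymphocytes and germ cells had no UMI in any of the 4 animals, and the free RNA levels were 3.79 and 3.75. CCL27 was read at 5.47 and 6.24 CPM in baboon germ cells, 2.17 and 2.19 in Sertoli cells and 0.953 and 1.09 in stromal cells, with a free RNA level of 2.84, and had 1 UMI in the rhesus cells. CCL28 had 72 baboon UMIs, 34 of them in stromal cells, and 5 rhesus UMIs. CCL26, a further ligand of CCR3, lay between 3.82 and 18.0 CPM in the stromal, endothelial, Sertoli and germ cells of the rhesus monkeys, with 2 macrophage UMIs and no lymphocyte UMI, and above its free RNA level of 1.87. CCR3, the receptor of the eotaxins, had 3 baboon UMIs and 1 rhesus UMI.

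Atypical receptors other than ACKR1 were split between classes. ACKR3, which takes up CXCL12 and CXCL11, had 31.3 and 74.3 CPM in the endothelial cells of baboon 1 and baboon 2 (6.71 ± 1.17, adjusted p = 0.00160), 4.76 and 21.9 in stromal cells, 8.75 and 10.4 in germ cells and 0.203 and 0.621 in Sertoli cells, with none in macrophages and lymphocytes. Its UMIs were widely spread, with 43 of 253 endothelial cells and 17 of 165 germ cells positive, and it had 4 UMIs in the rhesus cells. ACKR4, which removes CCL21 and CCL25, overlaps ACAD11, which is on the other strand of the rhesus genome. It was read at 7.55 and 7.58 CPM in the Sertoli cells of baboon 1 and baboon 2, at 3.68 and 4.85 in endothelial cells and at 2.86 and 1.40 in stromal cells, with 2 germ cell UMIs. In rhesus 1 and rhesus 2 it had 0.773 and 7.64 CPM in Sertoli cells, 0 and 3.61 in endothelial cells and 0.475 and 0.368 in stromal cells, and none in the other 3 classes. ACKR2, the scavenger of inflammatory CC ligands, had 21 and 3 UMIs.

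Germ cells had no member called in either direction in either species (edgeR; also none at an unadjusted p under 0.05, but 3 baboon and 2 rhesus members lower by DESeq2), where 39.8% of all genes were called higher and 4.94% lower in the baboon, and 18.7% and 10.8% in the rhesus monkey. Members that were highest in germ cells, such as baboon CCL27 and CXCL14, did not pass the filter, so this count leaves them out. The medians were 0.70 over the baboon members and 1.51 over all genes, and -2.16 and 0.27 in the rhesus monkey. CXCR4 had 25 UMIs in 16 of 100 rhesus germ cells, and ACKR3 had 18 UMIs in 17 of 165 baboon germ cells. At 1000 UMIs per cell, the rhesus share with CXCR4 was 2.00% (0.243% to 7.04%), against 0.109% of Sertoli cells, and with all UMIs kept it was 16.0% against 0.188%. With 5 germ markers required, 35 of the 100 cells remained and none had a CXCR4 UMI at 1000 UMIs, which allows a share of up to 8.57%. Germ cells had the most UMIs per cell of the 6 classes.

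Genes that act with chemokines were counted from 4 lists, beside the shares of all genes called in the same class. The same filter applied, so a listed gene that passed it through 1 high class had to differ. The counts therefore only describe the lists. Of the leukocyte adhesion and trafficking genes, 5 of 6 tested were called higher in baboon lymphocytes and 3 of 10 in rhesus ones, where 3.09% and 2.17% of all genes were. In macrophages, 2 of 6 baboon and 7 of 10 rhesus genes were called higher, where 2.77% and 7.60% were, and in Sertoli cells 3 of 6 and 4 of 10 were called lower, where 3.62% and 2.97% were. The medians of this list were 5.95 and 4.11 in lymphocytes and -0.79 and 4.30 in macrophages, against -0.60, -0.54, -1.46 and -0.02 over all genes. ITGB2, the chain shared by leukocyte integrins, was higher in lymphocytes by 6.71 ± 0.60 in the baboon (adjusted p = 5.23e-06) and 7.30 ± 0.55 in the rhesus monkey (adjusted p = 1.54e-05). In endothelial cells, ICAM2, which binds those integrins, was higher by 8.55 ± 0.60 (adjusted p = 9.62e-07) and 4.68 ± 0.49 (adjusted p = 8.97e-05), and the rhesus selectin SELE by 9.38 ± 1.17.

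Among 11 genes of receptor signalling and turnover, 4 baboon and 3 rhesus genes were called higher in lymphocytes, and 3 and 6 in macrophages, where 3.09%, 2.17%, 2.77% and 7.60% of all genes were. The medians were 2.04 and 2.32 in lymphocytes and 1.11 and 1.68 in macrophages. In rhesus stromal and Sertoli cells, 3 genes each were called lower and none higher, where 2.53% and 2.97% of all genes were lower. RGS1, which shortens G protein signalling below these receptors, was higher by 10.38 ± 0.50 in baboon lymphocytes (adjusted p = 7.91e-08) and by 9.69 ± 0.51 in rhesus macrophages (adjusted p = 1.10e-06). Inflammatory inducers and co-induced genes were called higher for 1 of 10 in baboon and 4 of 11 in rhesus macrophages, where 2.77% and 7.60% of all genes were, and for 4 of 10 in baboon and 2 of 11 in rhesus endothelial cells, where 13.1% and 11.3% were. IL1B was higher by 10.98 ± 0.84 (adjusted p = 1.50e-05) in rhesus macrophages, and PTGS2 by 9.65 ± 1.06 (adjusted p = 6.90e-05) in baboon endothelial cells. In Sertoli cells, TNFAIP3, an inhibitor of NF-κB, fell by 4.72 on the log2 scale in the baboon (adjusted p = 2.82e-05), and 3 of 10 genes of that list were called lower there. Immediate-early and stress genes, which digestion of tissue is known to raise, were called higher for 6 of 10 in baboon stromal cells, 5 of 9 in rhesus stromal cells, 2 of 10 in baboon macrophages and 5 of 9 in rhesus macrophages, where 17.2%, 10.9%, 2.77% and 7.60% of all genes were. They were called lower for 9 of 10 in baboon and 6 of 9 in rhesus germ cells, where 4.94% and 10.8% were. IER3 was higher by 7.14 ± 0.89 in baboon and 6.81 ± 0.57 in rhesus macrophages, and the part of digestion in the chemokine levels of that class was not tested.

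Where both species had at least 20 UMIs of a member, which held for 13 genes, the highest class was the same in 11. The shared ones included CCL25 in Sertoli cells, CXCL16, CX3CR1 and CCL8 in macrophages, CCL5 in lymphocytes and ACKR1, CCL21 and CX3CL1 in endothelial cells. The 2 others were CXCL9 and CCL26. How many of all genes share their highest class in this way was not computed, so the count only describes the members. For CCL21, CCL8 and CCL5 the rhesus side of the match rests on rhesus 1, which held all rhesus lymphocytes. The match of CCR10 in stromal cells was not seen in rhesus 2 alone, where Sertoli cells were highest. The match of CXCL14 in germ cells rests on few rhesus UMIs and was not seen in either rhesus animal alone. UMI totals of several members lay far apart, with 410 CXCL10 UMIs in the baboon against 1 in the rhesus monkey, 295 against 4 for ACKR3 and 171 against 1 for CCL27, and 427 CCL2 UMIs in the rhesus monkey against 2 in the baboon, 530 against 3 for CXCR4 and 288 against 2 for CXCR2. Species and annotation changed together, so that a difference between the animals and a difference in how a gene is annotated cannot be told apart here.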

How the data were processed

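The 6 libraries came from the testes of 4 animals, 2 of each species. The deposited files hold raw UMI counts per gene and barcode, which the authors made with Cell Ranger 3.1.0 from reads aligned to Panubis1.0 or Mmul_10. Seurat 3.2.3 is named in the submitters' processing notes and no cell annotation was used here. The replicate is the animal.

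Barcodes were kept as cells above a UMI cutoff (the 99th percentile of the top 5000, divided by 10) or, from 500 UMIs, where the profile differed from free RNA (adjusted p under 0.01, 10000 simulations), with at least 200 genes. Cells joined the class with the most marker genes above a free RNA share of 0.2, given at least 3 markers and a runner-up of at most 0.5 of its excess. Mixed cells (628 baboon and 1633 rhesus cells) and unassigned cells (1662 and 2052) entered no class. Doublets, which were assumed at 0.8% per 1000 cells, were kept, and leaving them out was an alternative. That alternative also used a stricter class rule, with a runner-up of at most 0.25 of the excess.

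Counts were summed per animal and class with at least 5 cells, which gave 12 baboon and 11 rhesus sums. Tests used edgeR 4.0.16 (quasi-likelihood, TMM, filterByExpr) in R 4.3.3 on 11731 and 9634 genes, with 6 and 5 residual degrees of freedom. DESeq2 1.42.0 was an alternative, with no filter, the animal as a block, other cell and class rules, and leaving out each library or sum. Rhesus lymphocytes had 1 sum, which is assumed to vary like the others. Sums of different classes are paired by animal, and their deviations from the class means correlated at 0.0592 to 0.688 (baboon) and 0.0690 to 0.591 (rhesus). Tested on simulated data for 200 genes changed by a log2 difference of 2, the fit recovered 89.5% in baboon Sertoli and 95.0% in baboon endothelial cells, and 86.0% and 82.5% in the rhesus monkey. Changed genes were drawn from well-counted ones, all classes otherwise had the same profile and spread, and sums were not paired by animal. The other classes were not tried. This recovery therefore does not carry over to them or to sparse members.

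Shares of cells were taken after 1000 UMIs were drawn per cell, with exact Clopper-Pearson 95% intervals. Members with at least 100 UMIs in a species are described by class and animal, the others by counts or where they pair with these, and up to 4 genes per related list by smallest adjusted p. The members and lists were chosen with earlier results of these data known. Promoter windows are from RefSeq (Mmul_10), and 58 of 59 rhesus members matched. Rhesus coordinates were taken from that annotation. Some items are not reported here.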

Additional observations from a re-analysis of the deposited data

Results flagged for a closer look

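ACKR4 was read at 17.2 CPM in the 233 Leydig cells of the rhesus monkey, which entered no comparison, from 18 UMIs in 13 cells. The level was 4.30 CPM in rhesus 1 (3 UMIs) and 43.2 in rhesus 2 (15 UMIs), against 4.05 in Sertoli cells of both animals and 1.70 in free RNA. It stood out as a signal in cells outside the 6 classes that was above the free RNA level.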

How the results depend on the processing

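In the baboon, 12 differences of members were called over the 6 classes, against 24 with DESeq2 and 28 without the filter on low counts, which both held all 12. In the rhesus monkey, 33 were called, and each alternative stayed within 1.5 times that number. With the animal as a block (the paired analysis), 14 baboon and 40 rhesus differences were called and none of the main calls was lost. Leaving out 1 sum at a time gave 10 to 14 and 28 to 34. No called difference changed direction. Of 123 baboon and 337 rhesus refits of single called differences, 11 and 28 lost the call. Without 1 library of an animal there were 8 (without 1B), 11 (1A), 31 (2B) and 34 (2A) calls. Of the shares of cells, 6 of 22 baboon and 11 of 36 rhesus alternatives moved beyond the interval of the share at 1000 UMIs, each with all UMIs of a cell kept. CCL8 in rhesus macrophages without rhesus 1 could not be fitted.

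Scaling moved the share of higher calls over all genes. From edgeR to DESeq2 it went from 89.5% to 72.8% in baboon stromal cells, 82.6% to 61.9% in Sertoli cells, 89.0% to 69.9% in germ cells, 58.0% to 69.4% in macrophages and 72.3% to 88.3% in lymphocytes. In the rhesus monkey it went from 81.1% to 60.9% in stromal cells, 87.1% to 73.1% in endothelial cells and 78.5% to 58.5% in Sertoli cells. The median difference of all genes moved most in baboon germ cells, from 1.51 to 0.37. Counts of all genes called, with the reported count in brackets, ranged in the baboon from 1154 to 3813 in stromal cells (2258), 55 to 907 in macrophage cells (560), 112 to 782 in lymphocyte cells (502), 1573 to 5090 in Sertoli cells (2437), 2665 to 6479 in germ cells (5249). The rhesus ranges were 667 to 2056 in stromal cells (1290), 345 to 1658 in endothelial cells (1245), 327 to 1068 in macrophage cells (817), 168 to 451 in lymphocyte cells (224), 537 to 2061 in Sertoli cells (1330), 1016 to 3753 in germ cells (2840). With 24 macrophages and 51 lymphocytes in the baboon, a gene without a UMI there can still have up to 56.8 and 25.6 CPM.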

Other observations

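Some members under 100 UMIs had germ cell levels above those of most other classes. CXCL14, a ligand of epithelia, had 15 of its 27 baboon UMIs in germ cells, at 5.47 CPM in baboon 1 and 10.4 in baboon 2, and at most 0.163 in Sertoli cells. Of its 39 rhesus UMIs, 14 were in Sertoli cells, and 3 were in germ cells of rhesus 1 and none in those of rhesus 2. CXCL9, an interferon-induced ligand of CXCR3, had 10 of its 25 rhesus UMIs in 10 of 100 germ cells, at 17.4 CPM in rhesus 1 and 3.01 in rhesus 2. In baboon germ cells CXCL9 was read at 3.28 and 5.20 CPM, and its highest baboon level was in endothelial cells, with 22 of 40 UMIs, all from baboon 1. CCL1 had 6 of its 7 baboon UMIs there, at 4.37 and 2.08 CPM. These genes were named after their values had been seen.

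CXCL17 had 45 of its 83 rhesus UMIs in stromal cells, at 0.475 CPM in rhesus 1 and 3.02 in rhesus 2. Sertoli cells had 1.03 and 1.56 CPM, and germ cells had the highest level, at 7.75 CPM in rhesus 1 from 4 UMIs and none in rhesus 2.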
